A study of Mus musculus with 6 samples.

Results

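The 9 genes described here carry the first steps of T cell receptor (TCR) signalling and of costimulation: the kinases Lck, Fyn, Zap70 and Prkcq, the adaptors Lat, Lcp2 and Themis, and the receptors Cd28 and Ctla4. They were taken by symbol from a table of 40808 Entrez gene IDs, and all 9 were found and passed the low-count filter, among 14110 genes tested. The table held 6 libraries of messenger RNA 3′ ends from mouse spleen. The 3 libraries titled NO_DOX (replicates 4, 5 and 6) came from mice not given Dox, and the 3 titled ON_DOX (replicates 10, 11 and 12) from mice given Dox. All 6 came from recipients of a bone marrow transplant, and the labels call the extracted cells splenic leukaemia cells. Dox is written without its full name. Its dose and duration, the gene it acts on, the transgene, and the strain, age and sex of the mice are not given in the sources used here, nor whether each library is a separate animal, so p-values measure the spread between these libraries.

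In T cells, Lck and its close relative Fyn phosphorylate the tails of the CD3 chains when the receptor binds antigen. Zap70 docks on those tails and phosphorylates Lat, a membrane scaffold, and Lcp2 (SLP-76), a cytosolic scaffold, which together hold the enzymes that release calcium and activate Ras. Prkcq (PKC-theta) links the receptor and CD28 to NF-kB, Themis tunes signal strength during thymocyte selection, and CD28 and CTLA4 compete for the same ligands with opposite effects. Lck, Themis and Cd28 are mainly genes of T lineage cells, whereas Fyn and Lcp2 are also expressed in platelets and myeloid cells, and B cells use relatives such as Lyn, Syk and Blnk in the same roles.

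The libraries held 5541486 to 8725767 counts. With Dox, 4 genes of the Y chromosome (Uty, Kdm5d, Ddx3y and Eif2s3y) summed to 0 counts in each library, against 545 to 801 without Dox. Xist, transcribed from the inactive X chromosome of female cells, had 3347 to 5669 counts with Dox and 193 to 324 without Dox, where Y-linked counts were also present. Dox and the sex of the cells cannot be told apart. The biological coefficient of variation was 0.190 without Dox and 0.515 with Dox, so means with Dox were less precise. Marker genes checked the labelled source. The 8 T cell markers summed to 1360 to 1422 CPM, a count normalised for library size, without Dox and 177 to 278 CPM with Dox. The 8 B cell markers went the other way, from 29.3 to 36.6 CPM without Dox to 1681 to 1801 CPM with Dox. Levels in bulk RNA cannot tell fewer cells of a type from less RNA per cell.

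Of the 9 genes, 6 were lower with Dox (Lck, Zap70, Lat, Themis, Cd28 and Prkcq), 0 were higher, and 3 (Fyn, Lcp2 and Ctla4) did not pass the threshold of an adjusted p-value of 0.05 (edgeR quasi-likelihood test, Benjamini-Hochberg over all tested genes). Among all tested genes 22.1% were lower and 23.6% were higher by the same rule. The median log2 fold change was -2.52 over the 9 genes and 0.07 over all tested genes. In 6 of the 9 genes every library of a group lay on the same side of the other group, which held for 59.6% of the genes tested. The summed level of the 9 genes was 845 ± 37.9 CPM in the no-Dox group and 207 ± 10.7 CPM in the Dox group (SD, n = 3 each). Under the 16 alternatives of scaling, filter, tool, threshold and left-out library, 5 or 6 genes were lower and 0 higher, DESeq2 and limma included, and 0 were higher at an unadjusted p under 0.05; 5 were lower at a threshold of 0.01, which Prkcq missed.

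**Figure D1:**
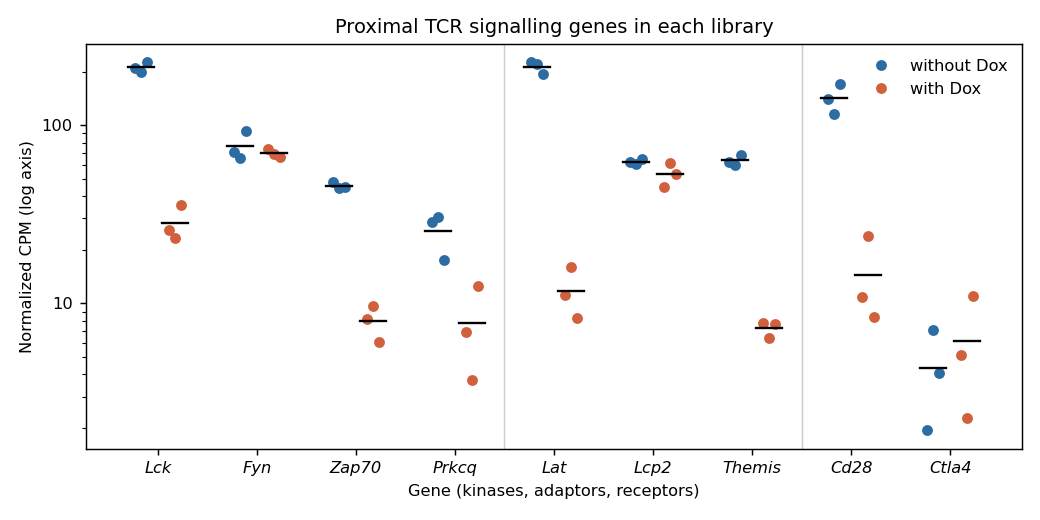
Each point is the normalized CPM (log axis) of a gene in 1 library, and black bars are group means of 3 libraries, ordered as kinases, adaptors and receptors. Lck, Zap70, Prkcq, Lat, Themis and Cd28 are separated between the groups, and Fyn, Lcp2 and Ctla4 overlap.

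Upstream sequence is shown for genes that fell (Lck, Zap70 and Lat) and for the pair that did not pass the test (Fyn and Lcp2), so that the 2 kinds can be read side by side. The windows come from RefSeq (GRCm38.p6), in a table that matched 8 of the 9 genes. Cd28 is named only. Each window holds the 250 bases before a start, read 5′ to 3′ on the gene's strand. Some of these starts lie inside the gene span given below. The windows of Lat and Fyn run into that span. The windows of the downstream Lck start and of Prkcq, the last not printed, lie wholly inside it. Capitals mark GGAAG on either strand, the core that ETS family transcription factors recognise. Lck is known for a distal and a proximal promoter, so both of its RefSeq starts are given; reads from mRNA 3′ ends do not tell them apart. The windows are chr4:129573642-129573891 (minus strand) and chr4:129558373-129558622 (minus strand) for Lck, chr1:36761548-36761797 (plus strand) for the first start of Zap70, chr7:126369569-126369818 (minus strand) for Lat, chr11:34046678-34046927 (plus strand) for Lcp2 and chr10:39369549-39369798 (plus strand) for Fyn.
Lck, upstream start: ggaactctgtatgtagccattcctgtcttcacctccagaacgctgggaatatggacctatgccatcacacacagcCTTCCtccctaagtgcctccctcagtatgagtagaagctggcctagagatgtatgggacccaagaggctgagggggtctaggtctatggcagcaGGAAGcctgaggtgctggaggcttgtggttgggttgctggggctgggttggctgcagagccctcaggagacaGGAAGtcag
Lck, downstream start: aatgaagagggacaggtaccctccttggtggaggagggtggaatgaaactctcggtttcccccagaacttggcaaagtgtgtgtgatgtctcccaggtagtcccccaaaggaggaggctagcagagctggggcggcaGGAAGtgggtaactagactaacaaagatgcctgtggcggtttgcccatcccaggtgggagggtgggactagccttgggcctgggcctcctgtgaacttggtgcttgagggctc
Zap70, first start: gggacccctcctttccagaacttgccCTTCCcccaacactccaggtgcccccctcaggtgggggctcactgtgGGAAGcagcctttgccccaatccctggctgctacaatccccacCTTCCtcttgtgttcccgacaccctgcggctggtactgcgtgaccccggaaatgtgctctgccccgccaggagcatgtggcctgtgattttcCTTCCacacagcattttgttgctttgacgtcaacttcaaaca
Lat: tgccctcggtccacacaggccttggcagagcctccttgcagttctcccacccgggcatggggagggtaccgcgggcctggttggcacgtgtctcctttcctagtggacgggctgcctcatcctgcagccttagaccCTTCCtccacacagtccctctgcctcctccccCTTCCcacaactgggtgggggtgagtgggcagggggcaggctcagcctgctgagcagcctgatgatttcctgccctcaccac
Lcp2: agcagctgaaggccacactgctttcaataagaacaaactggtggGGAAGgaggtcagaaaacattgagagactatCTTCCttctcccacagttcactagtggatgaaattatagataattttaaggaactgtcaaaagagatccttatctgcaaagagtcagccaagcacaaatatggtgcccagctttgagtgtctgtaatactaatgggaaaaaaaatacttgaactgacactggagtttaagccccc
Fyn: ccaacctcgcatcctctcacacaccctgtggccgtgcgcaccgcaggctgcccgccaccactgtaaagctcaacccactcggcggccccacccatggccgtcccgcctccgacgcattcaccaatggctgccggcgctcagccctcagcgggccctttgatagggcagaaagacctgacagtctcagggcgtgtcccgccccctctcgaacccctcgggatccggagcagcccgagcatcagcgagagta

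The GGAAG core occurred 3 times before the upstream start of Lck, once before its downstream start and 4 times before the first start of Zap70. Before the Lat start it occurred 2 times, and these 2 matches lie inside the gene's span. RefSeq lists 2 further starts of Zap70, not printed, with 4 and 0 matches. The core also occurred 2 times before Lcp2, which did not pass the test, and once each before the starts used for Prkcq and Ctla4. It had 0 matches before Fyn and 0 before either start of Themis, which fell. Of 32851 RefSeq windows of the same length, 64.1% held at least 1 match. Of other motifs searched on both strands, the RUNX letters TGTGGT matched once before the upstream start of Lck and once before the second start of Zap70 (14.0% of all windows held it). The GATA letters AGATAA matched 2 times before Lcp2 (9.99% of all windows) and 0 times in the other windows printed. The TCF letters CTTTGA matched once each before Fyn, Lcp2 and the first start of Zap70 (13.8% of all windows). The E-box letters CANNTG matched 3 times before the first start of Zap70, 2 times before Lat, once each before Lcp2 and the downstream start of Lck, and 0 times before Fyn (66.2% of all windows). The printed windows differed in base composition, from 41.2% G and C before Lcp2 to 67.2% before Fyn. A match is a description of the letters only.

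Lck (Entrez gene 16818, chr4:129548344-129573641, minus strand), the Src family kinase that starts the cascade, had 210, 200 and 226 CPM in the libraries without Dox and 25.7, 23.4 and 35.7 CPM with Dox. Every library without Dox was above every library with Dox. These levels came from 988 to 1405 counts and 189 to 271 counts. Lck fell by 2.91 in log2 units (SE 0.21; edgeR adjusted p = 5.5e-06), and its mean was 7.49-fold lower with Dox. Without Dox it shared the top of the order with Lat. From 3′ libraries 1 fragment per transcript is expected, so counts were compared between genes without scaling by length.

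Fyn (Entrez gene 14360, chr10:39369743-39565381, plus strand), the other Src family kinase of the group, had 71.0, 65.5 and 92.9 CPM without Dox and 74.0, 69.2 and 66.7 CPM with Dox. The groups overlapped. Replicate 6 without Dox was the highest. The log2 fold change was -0.13 (SE 0.19; edgeR adjusted p = 0.614), with a 95% confidence interval of -0.56 to 0.30, and scaling by library size alone turned it to 0.18, a setting that raised the all-gene median by 0.31. The interval covers a change to between 0.680 and 1.23 times the level without Dox. Lck counts were 2.43 to 3.06 times the Fyn counts of the same library without Dox and 0.338 to 0.536 times with Dox, so the order of these 2 kinases turned over in all libraries. Of the genes on the other strand of Fyn, Gm16365 covers its 3′ end and was not analysed here, and Gm16364, which does not reach that end, had 0 to 64 counts, against 323 to 672 for Fyn.

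Zap70 (Entrez gene 22637, chr1:36761798-36782821, plus strand), the kinase that binds phosphorylated CD3 tails, had 48.1, 44.4 and 45.1 CPM without Dox and 8.17, 9.68 and 6.06 CPM with Dox. The groups were far apart, and the spread without Dox was small. Zap70 fell by 2.52 in log2 units (SE 0.27; edgeR adjusted p = 5.7e-05). Prkcq (Entrez gene 18761, chr2:11171905-11301226, plus strand), the kinase of the CD28 branch, had 28.8, 30.4 and 17.5 CPM without Dox and 6.94, 3.71 and 12.5 CPM with Dox. Its groups did not overlap, but the lowest library without Dox and the highest with Dox were close. Prkcq fell by 1.73 in log2 units (SE 0.45; edgeR adjusted p = 0.0108). This was the least certain of the 6 calls: its log2 fold change was -2.29 with replicate 12 left out and -1.42 with replicate 11 left out, with an adjusted p of up to 0.044 over the alternatives.

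Lat (Entrez gene 16797, chr7:126363827-126369705, minus strand), the membrane scaffold that Zap70 phosphorylates, had 226, 221 and 193 CPM without Dox and 11.2, 16.0 and 8.30 CPM with Dox. It went from 1092 to 1511 counts per library without Dox to 63 to 155 with Dox. Lat fell by 4.17 in log2 units (SE 0.26; edgeR adjusted p = 2.83e-06), the largest fold of the 9 genes under every alternative run. Lat and Lck had nearly equal counts without Dox, at 0.856 to 1.11 Lat counts per Lck count. With Dox the ratio was 0.233 to 0.683, below every library without Dox.

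Lcp2 (Entrez gene 16822, chr11:34046928-34092281, plus strand), the scaffold that joins Lat in the same complex, had 62.4, 60.8 and 64.4 CPM without Dox and 45.3, 61.7 and 53.5 CPM with Dox. Replicate 11 with Dox lay inside the range without Dox. The log2 fold change was -0.22 (SE 0.19; edgeR adjusted p = 0.362; 95% confidence interval -0.65 to 0.20), and scaling by library size alone turned it to 0.08. The RNA ratio of the 2 scaffolds therefore differed between the groups. There were 2.997 to 3.64 Lat counts per Lcp2 count without Dox and 0.155 to 0.259 with Dox. In bulk RNA the 2 may come from different cells, which was not tested. The gene 4930469K13Rik overlaps Lcp2 on the other strand, but it had 5 to 79 counts, against 300 to 599 for Lcp2. The strand setting of the counting is not given in the sources used here, so for Fyn and Lcp2 reads of the 2 strands cannot be told apart.

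Themis (Entrez gene 210757, chr10:28668360-28883820, plus strand), an adaptor needed for thymocyte selection, had 62.5, 60.2 and 68.5 CPM without Dox and 7.76, 6.38 and 7.64 CPM with Dox. Among the genes that fell it had a small spread in both groups. Themis fell by 3.13 in log2 units (SE 0.23; edgeR adjusted p = 6.45e-06), from 297 to 419 counts down to 57 to 62 counts. Its range without Dox overlapped those of Fyn and Lcp2, and with Dox it was below both in every library.

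Cd28 (Entrez gene 12487, chr1:60746388-60773359), the main costimulatory receptor of T cells, had 140, 115 and 170 CPM without Dox and 10.9, 23.9 and 8.43 CPM with Dox. Replicate 11 was the highest of the Dox libraries and still far below the lowest library of the no-Dox group. Cd28 fell by 3.28 in log2 units (SE 0.37; edgeR adjusted p = 7.99e-05), and by 3.90 with replicate 11 left out. Ctla4 (Entrez gene 12477, chr1:60909025-60915832, plus strand), the inhibitory receptor encoded 136 kb downstream of Cd28, had the lowest mean of the 9 genes in both groups. It had 1.94, 7.09 and 4.07 CPM without Dox (13 to 35 counts) and 5.17, 2.26 and 11.1 CPM with Dox (22 to 84 counts). Each group lay partly inside the other, and no difference passed the test (edgeR adjusted p = 0.607), with a log2 fold change of 0.50 (SE 0.73). Its 95% confidence interval, -1.14 to 2.14, was the widest of the 9, and leaving out Dox replicate 12 turned the sign, to -0.25. Per Ctla4 count there were 16.3 to 72.2 Cd28 counts without Dox and 0.762 to 10.6 with Dox.

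The make-up of the set differed between the groups. Lat and Lck held 25.3% ± 3.0 and 25.1% ± 0.49 of the summed counts of the 9 genes in the no-Dox group, against 5.69% ± 1.7 and 13.7% ± 3.1 in the Dox group (SD, n = 3 each). Fyn went from 9.01% ± 1.3 to 33.9% ± 3.5 and Lcp2 from 7.40% ± 0.13 to 25.8% ± 2.7 (SD, n = 3 each). The groups did not overlap for these 4 genes. Prkcq held 3.05% ± 0.94 in the no-Dox group and 3.75% ± 2.1 in the Dox group (SD, n = 3 each), with overlap between them. In the order of levels, Lat and Lck led without Dox, with ranges that overlapped each other, followed by Cd28. Fyn, Themis and Lcp2 came next. The range of Themis overlapped those of Fyn and Lcp2, which did not overlap each other. With Dox, Fyn led, then Lcp2, then Lck, and from Lck downward each gene overlapped the next in the order.

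**Figure D2:**
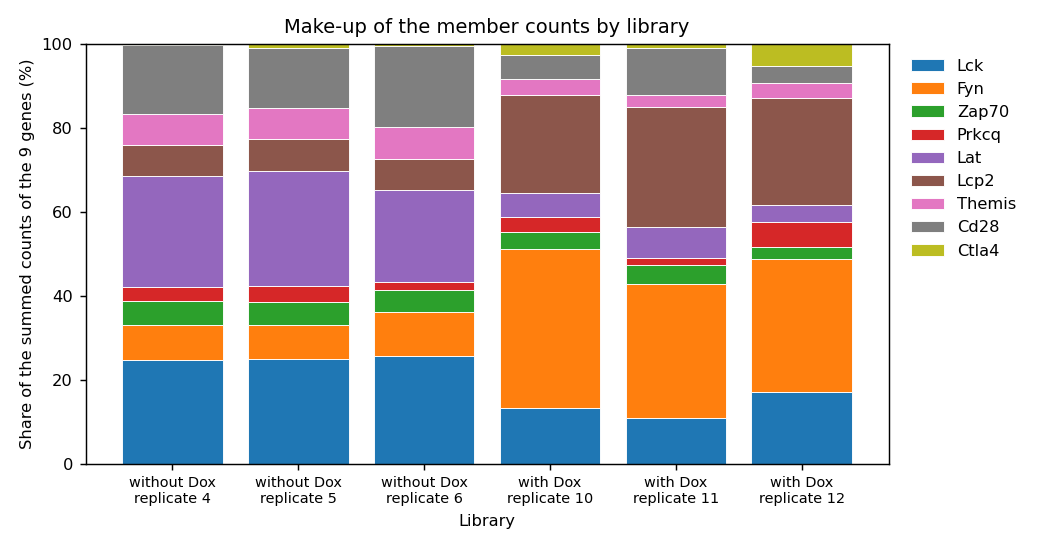
Stacked bars give each gene's share (percent) of the summed counts of the 9 genes in each of the 6 libraries. Fyn and Lcp2 take 15.7% to 17.9% together without Dox and 57.3% to 61.2% with Dox, while the shares of Lat, Lck and Cd28 are smaller with Dox.

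Levels were next set against the CD3 chains, the receptor parts on which these proteins act. Cd3d, Cd3e and Cd3g are defining T cell genes, and a ratio within a library does not depend on library scaling. Together they had 5810, 4007 and 4714 counts without Dox and 350, 388 and 371 with Dox. Cd3d fell by 4.87, Cd3g by 3.89 and Cd3e by 3.39 on the log2 scale (adjusted p of 5.38e-07 to 3.53e-05 by edgeR), a range that held the fold change of 1 of the 9 genes, Lat.

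Fyn had 8.19, 8.06 and 11.6 counts per 100 CD3 counts without Dox and 155, 173 and 136 with Dox. Lcp2 had 7.19, 7.49 and 8.06 without Dox and 95.1, 154 and 109 with Dox. Ctla4 had 0.224, 0.874 and 0.509 without Dox and 10.9, 5.67 and 22.6 with Dox. For these 3 genes the ratio was higher in every library with Dox, by 4.07 (Fyn), 3.95 (Lcp2) and 4.57 (Ctla4) on the log2 scale. Lck went from 24.2 to 28.2 counts per 100 CD3 counts without Dox to 54.0 to 73.1 with Dox, and Zap70 from 5.47 to 5.64 to 12.4 to 24.2. Themis and Prkcq were also higher against the chains with no overlap, Cd28 and Lat overlapped, and the log2 difference of Lat was -0.03 (SE 0.36). In all, 7 of the 9 ratios were higher with no overlap (exact two-sided permutation p = 0.1 each, the smallest that 3 against 3 allows, and 0.129 after Benjamini-Hochberg adjustment over the 9 genes). The summed CD3 chains went from 799 to 867 CPM without Dox to 39.9 to 48.9 CPM with Dox. The median log2 fold change of all tested genes was 0.07, so a gene of unchanged level would also be higher by this ratio. The share of all tested genes that were higher by it was not counted.

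The denominator decided 4 of these 7. With Cd247, the CD3 zeta chain, in place of the other chains, 3 ratios were higher with no overlap (Fyn, Lcp2 and Ctla4), 1 was lower (Lat, log2 difference -1.37) and 5 overlapped. With the summed counts of 8 T cell markers, the same 3 were higher and 2 were lower, Lat at -1.65 and Themis at -0.56. The log2 difference of Lck was 1.26 against Cd3d, Cd3e and Cd3g, -0.08 against Cd247 and -0.36 against the 8 markers. Fyn, Lcp2 and Ctla4 were higher per T cell gene count under the 3 denominators, and Lck, Zap70, Prkcq and Themis under 1 of them. Each denominator was lower with Dox, while the levels of Fyn, Lcp2 and Ctla4 themselves did not pass the test. Any gene of unchanged level is higher by such ratios, so agreement between the 3 denominators adds no support. The 8 markers include Cd3d, Cd3e, Cd3g and Cd247 themselves. They also include Cd2, which had 128 ± 7.4 CPM in the no-Dox group and 117 ± 34 CPM in the Dox group (SD, n = 3 each) and which mouse B cells also express.

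**Figure D3:**
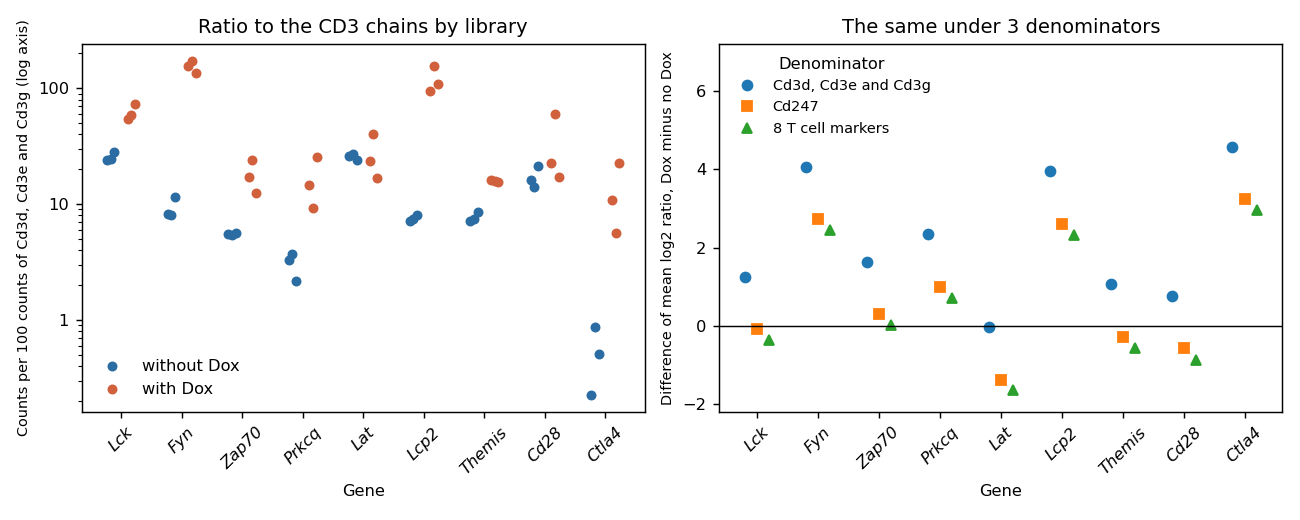
Left, counts of each gene per 100 summed counts of Cd3d, Cd3e and Cd3g in each library (log axis). Right, the difference between group means of the log2 ratio with 3 choices of denominator; Fyn, Lcp2 and Ctla4 lie above 2 with each, and Lck, Themis and Cd28 lie on both sides of 0.

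Genes of the same families that also act in B and myeloid cells were compared, since several fill the same positions there. The list was not limited to genes absent from T cells. The list of 18 relatives was written with earlier results of these data known. Of the 17 tested, 13 were higher with Dox, 1 was lower (Prkch, which fell by 1.88 on the log2 scale) and 3 did not pass (edgeR). The shares were 76.5% higher and 5.88% lower, beside 23.6% and 22.1% of all tested genes. Their median log2 fold change was 2.84. Syk, the partner of Zap70 in its family, had 11.3 ± 0.93 CPM in the no-Dox group and 160 ± 32 CPM in the Dox group (SD, n = 3 each), and rose by 3.82 in log2 units (SE 0.23; edgeR adjusted p = 2.58e-06). Zap70 had 3.65 to 4.67 counts per Syk count without Dox. With Dox there were 18.4 to 21.9 Syk counts per Zap70 count.

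Lyn, the Src family kinase that starts B cell receptor signalling, rose from 34.3 ± 5.4 to 230 ± 42 CPM (SD, n = 3 each), by 2.74 on the log2 scale (SE 0.21). Lck had 4.94 to 7.35 counts per Lyn count without Dox and 0.109 to 0.133 with Dox. Blk, a B lineage Src kinase, had 5, 0 and 0 counts without Dox and 115, 160 and 248 with Dox. Its fitted log2 fold change, 6.19, rests on few counts and ranged from 5.54 (replicate 6 of the no-Dox group left out) to 10.24 (replicate 4 of that group left out, where the remaining no-Dox libraries were at 0). Fyn, whose own level did not pass the test, held 1.62 to 3.03 counts per Lyn count without Dox and 0.249 to 0.373 with Dox.

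Among adaptors, Blnk, the B cell counterpart of Lcp2, rose by 3.84 on the log2 scale (SE 0.26) while Lcp2 did not pass the test, and Lcp2 had 11.5 to 17.7 counts per Blnk count without Dox and 0.684 to 0.917 with Dox. Lat2, which serves as a Lat-like scaffold in B and myeloid cells, had 32, 8 and 5 counts without Dox and 299, 283 and 193 with Dox. Themis2 rose by 1.82 (SE 0.31), against the fall of Themis, and the count ratio of Themis to Themis2 went from 9.18 to 11.03 down to 0.285 to 0.365. The ratios of these 3 pairs did not overlap between the groups. Prkcb, the PKC isoform of the B cell NF-kB branch, did not pass the test: it had 480 ± 8.1 CPM in the no-Dox group and 414 ± 31 CPM in the Dox group (SD, n = 3 each; log2 fold change -0.21, adjusted p = 0.237 by edgeR), and scaling by library size alone turned it to 0.10. There were 15.9 to 27.0 Prkcb counts per Prkcq count without Dox and 30.7 to 112 with Dox, again with no overlap. Prkcd (log2 fold change 0.70, adjusted p = 0.0656) and Icos, the CD28 family member next in the locus (-0.23, adjusted p = 0.794), did not pass either.

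**Figure D4:**
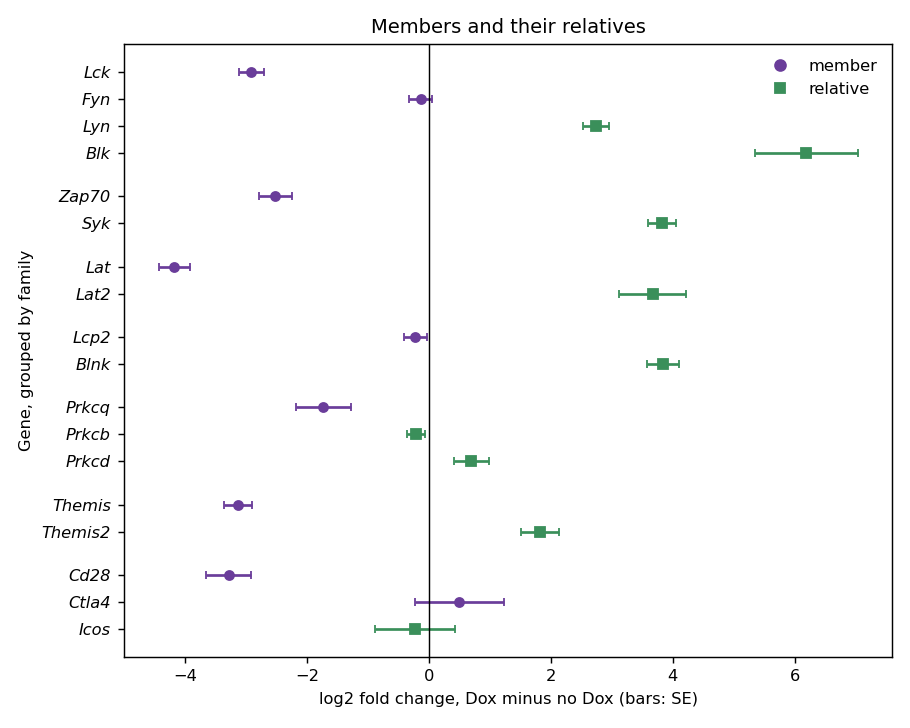
Log2 fold changes (Dox minus no Dox) with SE from the edgeR fit, for the 9 genes (circles) and relatives of the same family (squares). Lyn, Blk, Syk, Lat2, Blnk and Themis2 lie between 1.82 and 6.19, and the 6 members that fell between -4.17 and -1.73. The relatives Prkcb, Prkcd and Icos and the members Fyn, Lcp2 and Ctla4 lie between -0.23 and 0.70 and did not pass the test.

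Markers of other cell types moved with these results. Platelet and megakaryocyte markers summed to 64.7 to 71.0 CPM without Dox and 234 to 305 CPM with Dox, with 6 of 6 tested genes higher. Myeloid markers summed to 195 to 197 CPM and 1759 to 1938 CPM, with 4 of 7 tested genes higher and 1 lower. Natural killer cells share Lck, Zap70 and Lat with T cells, and their markers summed to 3.56 to 8.31 CPM and 21.5 to 36.6 CPM, and 2 of the 4 tested were higher. Erythroid markers summed to 94040 to 104100 CPM and 133000 to 143000 CPM, with 4 of 8 higher and 2 lower, and stromal markers to 346 to 387 CPM and 325 to 491 CPM, with overlap. Over all tested genes 23.6% were higher and 22.1% lower by the same rule, and these marker lists are short. For regulatory T cells, which carry much Ctla4, Foxp3 had 2, 0 and 0 counts without Dox and 17, 23 and 17 with Dox (edgeR adjusted p = 0.0235, and 0.0571 to 0.181 when any 1 of 4 libraries was left out: replicate 4, 5 or 6 without Dox, or 10 with Dox), while Il2ra and Ikzf2 fell and Tnfrsf18 and Ikzf4 did not pass the test. The part of these cells in the levels of Fyn, Lcp2 and Ctla4 was not tested.

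The rest of the TCR pathway was counted from 10 lists with 100 genes, of which 97 were tested. By edgeR, 35 were lower with Dox (36.1%) and 21 higher (21.6%), with a median log2 fold change of -0.16. Over all tested genes the shares were 22.1% and 23.6%, so the share of higher genes was near that of all genes. Receptor and coreceptor genes were the most uniform. Of 8 TCR and CD3 chains, 7 were lower, with the constant region Trbc1 falling by 5.57 on the log2 scale. The 3 coreceptor genes were lower, led by Cd8a, which fell by 3.76.

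Among 12 kinases and phosphatases that set the first step, 4 were lower (33.3%) and 5 higher (41.7%), beside 22.1% and 23.6% of all tested genes. Tec, a kinase of many blood cells that acts after the Src family step, rose by 2.30 (SE 0.38). Csk and Ptprc (CD45), the kinase and the phosphatase that set the inhibitory tyrosine of Lck, fell by 0.73 and 0.60. Ptpn6 (SHP-1) and Inpp5d (SHIP-1), phosphatases that damp receptor signals in many blood cells, rose by 1.43 and 1.86. Of 19 adaptors and scaffolds, 9 were lower (47.4%) and 1, Was, was higher (5.26%). The call of Was (log2 fold change 0.72; edgeR adjusted p = 0.0173) was lost without replicate 4, 5 or 6 of the no-Dox group or replicate 11 with Dox (0.0534 to 0.116). Sh2d1a (SAP), which couples SLAM receptors to Fyn, had 797, 491 and 516 counts without Dox and 11, 0 and 10 with Dox. Its partner receptor Slamf6 fell by 2.13. Trat1, Skap1, Sh2d2a and Sla fell as well, by 2.91, 1.85, 3.39 and 1.39. Grap2 (GADS), which joins Lat to Lcp2, did not pass either (35.6 ± 3.0 and 33.0 ± 11 CPM, SD, n = 3 each).

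Of 18 genes of the second messenger, calcium and Ras steps, 5 were lower (27.8%) and 6 higher (33.3%), beside 22.1% and 23.6% of all tested genes, with a median log2 fold change of 0.04. Rasgrp1, the Ras activator of T cells, fell by 1.4 (SE 0.24), and Mapk3 (ERK1), a kinase at the end of the Ras cascade, rose by 2.95. The calcineurin subunits were also divided, with Ppp3ca up by 1.97 and Ppp3cb and Ppp3r1 down by 0.83 and 1.17 on the log2 scale. Plcg1, the phospholipase that binds Lat, had only 0 to 34 counts in any library and did not pass. In the NF-kB branch that PKC-theta feeds, 2 of 5 genes were higher and 3 did not pass. Malt1, a protease of this branch that B cells also use, rose by 2.32. Of 6 ligases and brakes, Cbl fell by 0.76 and Ubash3b rose by 2.49.

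Of 16 tested costimulatory and inhibitory receptors, 4 were lower (Cd27, Slamf6, Cd6 and Pdcd1) and 3 higher (Cd226, Btla and Tnfrsf4). These shares, 25.0% and 18.8%, were near the 22.1% and 23.6% of all tested genes. The call of Cd226 (edgeR adjusted p = 0.000498) was lost with limma-voom (adjusted p = 0.0736). Cd27 fell by 3.61, close to Cd28. Btla, which B cells also carry, rose by 2.91. Among ligands, Icosl, the ligand of ICOS on B cells, had 1, 1 and 4 counts without Dox and 279, 159 and 129 with Dox, and Cd86, a ligand of CD28 and CTLA4, did not pass (9.15 ± 1.6 and 12.2 ± 4.8 CPM, SD, n = 3 each). Among genes induced early after receptor engagement, Egr1 and Nr4a1 fell by 1.85 and 0.95, and Egr3 and Nr4a3 rose by 1.91 and 2.66, the last in few counts (2 to 6 without Dox, 17 to 84 with Dox). The call of Nr4a3 (edgeR adjusted p = 0.0444) was lost without replicate 4, 5 or 6 of the no-Dox group or replicate 11 with Dox (0.0949 to 0.187).

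**Figure D5:**
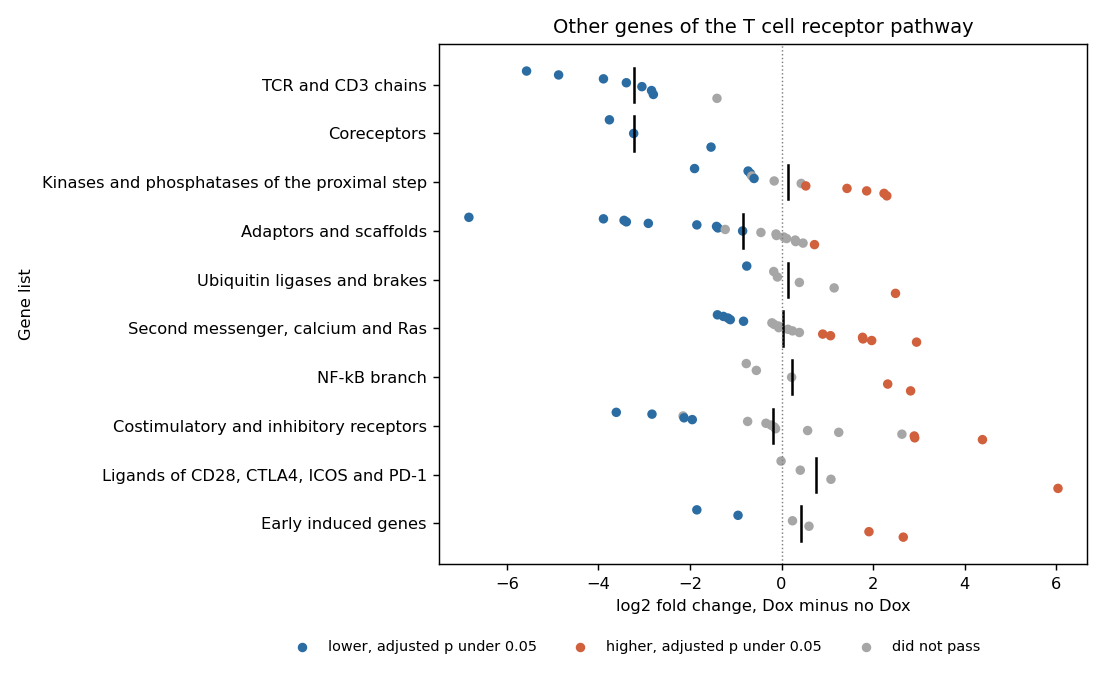
Each point is the log2 fold change of a tested gene in 1 of 10 pathway lists, coloured by its edgeR call at an adjusted p-value of 0.05, and black bars are list medians. The TCR and CD3 chains and the coreceptors lie below -1, and the lists further downstream hold genes on both sides of 0.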

How the data were processed

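RNA 3′ ends from spleen were sequenced in 6 libraries prepared with a QuantSeq forward kit, per the labels' protocols. The authors deposited 1 table of raw counts per Entrez gene ID. The submitters' processing notes name STAR, featureCounts and the build GRCm38; versions, strand setting and treatment of multi-mapping reads are not given in the sources used here. Symbols and coordinates came from RefSeq for GRCm38.p6 (39374 of 40808 IDs matched), and overlaps between genes from GENCODE. A total of 0 sample columns were unmatched.

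The gene test was that of edgeR 4.0.16 (R 4.3.3; filterByExpr with minimum count 10 and minimum total 15, TMM scaling, quasi-likelihood F-test on 6 libraries without covariate, Benjamini-Hochberg over 14110 genes, threshold 0.05). Scripts were tested on simulated data. CPM are counts scaled by total after filtering and TMM factor. The lowest level that 3 counts allow was 0.309 to 0.608 CPM, for counting error only. Ratios to CD3 counts had 0.5 added to both terms on the log2 scale. DESeq2 1.42.0 and limma 3.58.1 served as alternatives, and limma-voom with a weight for each group was added after the data were seen.

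The members and lists were chosen with earlier results of these data known. Named genes were the members, their relatives, 3 CD3 chains, Foxp3, the gene with the largest change in each direction per list and 5 genes of similar profile; other genes, and the ratios between pairs of genes, were chosen after their values were seen. Groups came from library titles. Some genes that the rule names are not reported here.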

Additional observations from a re-analysis of the deposited data

How the results depend on the processing

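No paired analysis was possible because numbers 4, 5 and 6 occur only without Dox and 10, 11 and 12 only with it. Of the 9 genes, 5 to 6 were lower and 0 higher over 16 alternatives of the gene test, and 6 were lower in each fit that left out 1 library. The wider pathway genes numbered 28 to 37 lower and 17 to 27 higher (31 to 36 and 17 to 21 with 1 library left out), and the relatives 10 to 14 higher and 1 lower; the most wider genes were higher (27) under scaling by library size alone, which shifted the all-gene median by 0.31. The count of genes higher against the CD3 chains with no overlap, 7, was 3 with Cd247 and 3 with the T cell marker list as denominator, and 7 to 8 with 1 library left out. Signs turned for 5 genes that had not passed the test: with library size only, Fyn (0.18), Lcp2 (0.08), Icos (0.07) and Prkcb (0.10), and Ctla4 with Dox replicate 12 left out (-0.25), in a range of -0.25 to 0.97 with 1 library left out. Icos ranged from -0.94 to 0.25 over the 16 alternatives. With 1 library left out it ranged from -0.63 to 0.25, the last with Dox replicate 11 left out. Calls of Foxp3 (adjusted p up to 0.181), Nr4a3 (0.187), Was (0.116), and Cd226 (0.0736, limma-voom) were lost under some alternatives, and Prkcd passed under 5; the cause was not tested. Genes named after their values were seen were not followed singly under the alternatives. Levels near 3 counts, such as Blk and Icosl without Dox, limit the size of their folds.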

Other observations

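The mean profile of the 9 genes over the 6 libraries was compared with all other genes of at least median level. The nearest by Euclidean distance of centred log2 CPM were Ckap2, a spindle protein gene (distance 0.13), Srsf6, a splicing factor gene (0.18), the ribosomal protein gene Rpl5 (0.20), Naa10 (0.20) and Ssr4 (0.23), with log2 fold changes of -2.06 to -1.89. These are not T cell genes, and 6 libraries in 2 groups leave little beside the group difference to compare. The mean hides unlike members: Zap70 lay nearest to it (0.88) and Ctla4 farthest (3.42).

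The T cell receptor constant regions Trbc1 and Trbc2, which are alternatives in a T cell, differed in size: Trbc1 had 729 ± 30 and Trbc2 181 ± 15 CPM in the no-Dox group, and 15.4 ± 6.4 and 25.2 ± 2.4 CPM in the Dox group (SD, n = 3 each). How reads shared by such similar genes were counted is not given in the sources used here.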
